A study of Drosophila sechellia x Drosophila simulans with 8 samples.

Results

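The subject here is the autosomal allelic ratio of hybrid flies, set between females and males within oenocytes and within fat body. A gene entered a tissue where it lies on chromosome arm 2L, 2R, 3L or 3R or on chromosome 4 and had at least 20 allele-specific reads in each of the 4 libraries of that tissue. Of 14176 genes in the deposited tables, 11820 lie on these chromosomes. The minimum was met by 2059 genes in oenocytes and by 2005 genes in fat body, by 2556 genes in either tissue and by 1508 in both. In oenocytes 576 of the genes were on 3R, 542 on 2R, 466 on 3L, 453 on 2L and 22 on chromosome 4, and in fat body the counts were 572, 515, 459, 440 and 19. Just above the minimum, 313 oenocyte genes had 20 to 24 reads in their shallowest library and a median female-minus-male difference in log2 ratio (mean of the library values, with 5 added to each allele count) of 0.19, and the 380 genes with 15 to 19 reads that fell outside had 0.20. In fat body the same medians were -0.05 for 247 genes just inside and -0.08 for 362 genes just outside.

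All flies were F1 hybrids of Drosophila sechellia and Drosophila simulans, aged 10 days and kept in cycles of light and dark, with tissue taken at even intervals over the day. The 4 groups were female oenocytes, male oenocytes, female fat body and male fat body, with 2 libraries each (replicates 1 and 2), all dissected from the upper side of the abdomen. The labels give neither the direction of the cross nor the strains, nor how many animals went into a library, so the p-values measure only the spread between these libraries, which may be technical. The series title places the work in the study of cis-regulatory divergence between the species.

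A hybrid holds both parental alleles of each autosomal gene in the same nuclei, under the same set of regulatory proteins. Unequal transcript levels of its alleles are therefore read as a difference that lies on the chromosome itself, in the regulatory DNA of the gene. Comparing the allelic ratio between the sexes asks whether such a difference has the same size in female and in male cells. Oenocytes are the abdominal cells that make the waxy cuticular hydrocarbons, which serve flies as a water barrier and as contact pheromones and which differ between the sexes in many species. The fat body is the fly's organ of storage and intermediary metabolism, and in females it makes yolk proteins.

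Reads that matched the alternative allele were read as D. sechellia and reads that matched the reference allele as D. simulans. The names rest on the data: across 756 to 884 genes a library, the reference percentage correlated with the percentage of the D. simulans transcript copy in the kallisto tables (Pearson's r 0.631 to 0.740, across genes, which are not independent replicates). Libraries held 2275755 to 4642417 reads in genes, of which 24.8% to 30.4% were specific for an allele and 2.59% to 3.27% carried conflicting alleles. The median gene analysed had 54 to 126 allele-specific reads a library. D. sechellia reads were 62.5% to 65% of the autosomal allele-specific reads in every library. How much of this share is reads given to the wrong allele was not tested. On the X, which males carry in a single copy, the D. sechellia share was 17.6% and 17.9% for male oenocytes and 24.6% and 22.1% for male fat body, while it was 54.0% to 58.1% in females. A single X holds the allele of a single species, so the reads of both species on the male X include reads given to the wrong allele. The labelled tissues were checked against the defining markers that could be matched by symbol. The oenocyte desaturase DesatF, the only oenocyte marker of the list that was matched, had 2544 and 2725 TPM (a transcript abundance scaled for length and to a fixed library sum) in female oenocytes and 143 and 145 TPM in male oenocytes, while fat body had 25.7 to 30.4 TPM in females and 4 to 4.3 TPM in males. In bulk tissue, fewer cells of a type and less RNA per cell cannot be told apart. The fat body markers found, Yp2 and Adh, summed to 38887 to 40140 TPM in female oenocytes and 3426 to 3461 TPM in male oenocytes. In fat body they summed to 93510 to 94815 TPM in females and 32542 to 34719 TPM in males. Yp2 is a yolk protein gene, so these sums mix sex with tissue. Adh alone had 2536 and 2728 TPM in female oenocytes and 3405 and 3359 TPM in male oenocytes. In fat body Adh had 6548 and 6378 TPM in females and 34665 and 32458 TPM in males. The part of fat body RNA in the oenocyte results was not tested. The egg shell gene Cp16 was listed at 0 in all 8 libraries, the summed level of 2 muscle genes was at most 19.6 TPM and that of 2 testis genes at most 2.12 TPM, and the 8 accessory gland genes found summed to 0 except in male fat body, where they reached 1.89 TPM.

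Replicate error was examined first. The male oenocyte libraries differed little more than sampling noise allows (chi-square of the estimated counts over its degrees of freedom 1.08, with 1 for pure noise, over 3286 genes with 1 transcript). The same figure was 5.55 for the female oenocyte pair, 2.94 for the female fat body pair and 5.18 for the male fat body pair. The male oenocyte pair was therefore summed and counted as 1 sample, which left 7 samples in the test and no spread between male oenocyte libraries. In allelic share, the quantity tested, this pair was also the closest (median chi-square over genes 0.409, with 0.455 for sampling noise, against 0.732 to 1.75 in the other pairs), but its mean chi-square of 2.27 shows that some genes did differ between the libraries. Results with all 8 libraries as separate samples are therefore given beside the oenocyte count of calls and DesatF. The deposited allele-table reads were less steady than the deposited TPM of the same libraries. Between replicates, total reads per gene (scaled to the library) differed by more than 1 on the log2 scale for 154 of 2052 genes (female oenocytes), 207 of 2053 (male oenocytes), 277 of 2003 (female fat body) and 193 of 2003 (male fat body). TPM differed that much for 7, 4, 9 and 7 of the same genes. Genes whose read totals jumped between replicates also differed more in allelic ratio between those replicates, with medians of 0.58, 0.57, 0.53 and 0.68 log2 units in the same order of groups, while the remaining genes had 0.46, 0.24, 0.30 and 0.46. What made the read totals jump was not tested.

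Female and male libraries of a tissue differed in allelic ratio by amounts that overlapped those between libraries of the same sex. Every oenocyte sex pair, though, differed more than the male oenocyte replicates did. In oenocytes the median absolute difference in log2 ratio over genes was 0.33, 0.33, 0.53 and 0.47 for the 4 pairs of a female with a male library, against 0.46 between the female replicates and 0.26 between the male replicates. The larger of the sex pairs both involved female replicate 2. In fat body the sex pairs gave 0.31, 0.48, 0.33 and 0.46, against 0.32 between the female replicates and 0.47 between the male replicates, and the larger pairs both involved male replicate 2. Among genes with 200 or more reads in every library of the tissue the sex pairs fell to 0.20 to 0.33 in oenocytes and 0.16 to 0.30 in fat body, and the replicate pairs to 0.26 and 0.15 in oenocytes and 0.19 and 0.29 in fat body.

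**Figure D1:**
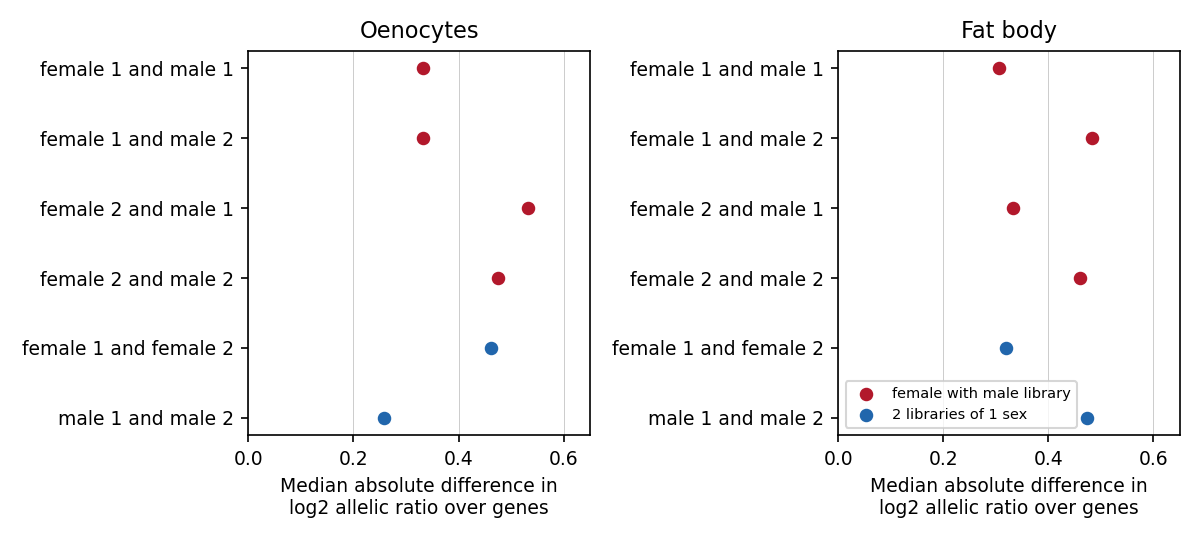
Median absolute difference in log2 allelic ratio over genes (x axis) for every pair of libraries (rows) in oenocytes (left, 2059 genes) and fat body (right, 2005 genes). Red points pair a female with a male library and blue points pair replicates of a single sex, and the 2 kinds overlap in both tissues.

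In oenocytes no gene passed the test of a sex difference. The test was edgeR's quasi-likelihood test on the read counts of both alleles, with p-values adjusted by Benjamini-Hochberg over all 2571 genes fitted, and a gene is called at an adjusted p under 0.05. Among the 2059 genes 0 were called, against 0.0778% of all genes fitted (the genes called lie on an unplaced scaffold), and 61 genes (2.96%) had an unadjusted p under 0.05. DESeq2 called 0 genes with 25 at an unadjusted p under 0.05, and limma on the log2 ratio called 0 with 1 or with 5 reads added, with 38 and 56 at an unadjusted p under 0.05. With all 8 libraries as separate samples edgeR also called 0, with 138 at an unadjusted p under 0.05. The fitted difference (female minus male, log2 ratio of D. sechellia to D. simulans reads) had a median of 0.14 and 90% of genes lay between -0.91 and 1.16. It was positive in 1267 genes and negative in 792, a split that depends on scaling: with a TMM factor for each allele the median became 0.01. The libraries of the sexes did not overlap in 869 genes (42.2%), 608 with the higher ratio in females and 261 with the lower. Among all 2071 genes fitted with enough reads in this tissue, which include these 2059, the share was 42.4%. Leaving out a library changed the count, to 14 genes without female replicate 1, 2 without female replicate 2, 1 without male replicate 1 and 1 without either female fat body library.

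An uncalled gene is not a gene shown to be equal in the sexes, and how far a difference could be bounded depended on depth. The 95% interval of the difference lay within 1 log2 unit of 0, that is, within a doubling of the ratio, for 185 oenocyte genes (8.98%), and within 2 log2 units for 1315 (63.9%). Of the 296 oenocyte genes with 200 or more reads in every library, 143 (48.3%) were held within 1 log2 unit, against 5 of the 1048 genes with 20 to 49 reads (0.477%). Fat body was bounded more tightly, with 353 of 2005 genes (17.6%) within 1 log2 unit and 1512 (75.4%) within 2. There 254 of the 349 genes with 200 or more reads (72.8%) were held within 1 log2 unit. Oenocytes had fewer samples in the test, since the male pair was counted as 1 sample. How much of the gap between the tissues this made was not tested.

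**Figure D2:**
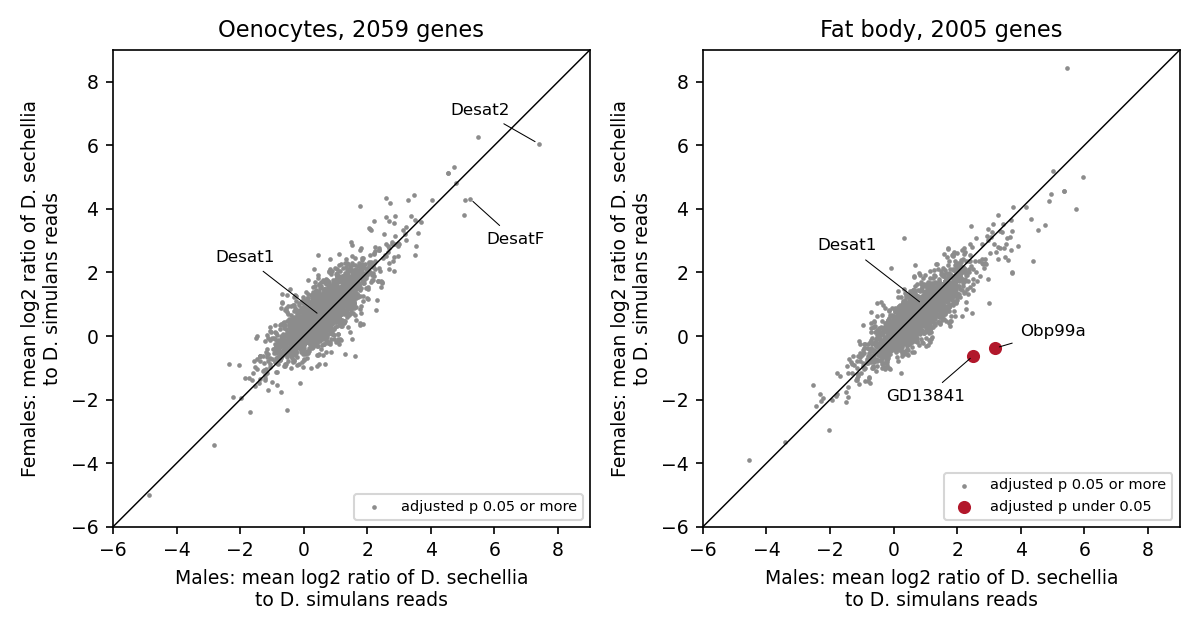
Mean log2 ratio of D. sechellia to D. simulans reads (5 added to each count) in females (y axis) against males (x axis) for each gene of oenocytes (left) and fat body (right). The line marks equal ratios, and the red points in fat body are Obp99a and GD13841, the 2 genes called.

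The hydrocarbon genes were the ones to ask about in oenocytes, and 3 of the 25 listed symbols were found in the tables, all of them fatty acyl desaturases, which put double bonds into hydrocarbon precursors. None of the 3 in oenocytes and of the 2 in fat body was called, and their median differences were -1.43 and -1.02, against 0.14 and -0.07 over all genes. Medians of so few genes do not describe a group: the differences ran from -4.05 to 0.08 in oenocytes and from -2.12 to 0.08 in fat body. DesatF (3L), which in D. melanogaster makes the dienes of females, had 95.7% D. sechellia reads (2303 reads) and 95.3% (1111 reads) in female oenocytes, against 96.9% (65 reads) and 100% (715 reads) in male oenocytes. All 4 libraries were near the ceiling, and the groups did not overlap by a narrow margin. The difference was -4.05 ± 0.73 (SE) with an unadjusted p of 6.05e-05 and an adjusted p of 0.0518 by edgeR, which misses the threshold. With all 8 libraries as separate samples it was -3.92 ± 0.94 with an edgeR adjusted p of 0.44, and over the alternatives the adjusted p ran from 3.09e-06 to 1 with 10 of 21 past the threshold. The size rests on male oenocyte replicate 2, in which none of 715 reads was D. simulans (a count of 0 allows up to 0.420%): without that library the difference was -0.50, and without male replicate 1 it was -7.99, a fitted value against 0 reads that is no bound.

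In RPM, here the reads of an allele scaled to a fixed sum of allele-specific reads in the library, DesatF had 1908 and 1175 RPM of D. sechellia in female oenocytes, against 112 and 784 RPM in male oenocytes. Its D. simulans reads were 84.8 and 57.7 RPM in female oenocytes, against 3.55 and 0 in male oenocytes. The male libraries differed that much in D. sechellia reads at TPM of 145 and 143, so DesatF is among the genes whose deposited reads jumped between replicates without a jump in TPM. In the kallisto tables its D. sechellia copy held 99.98% and 99.93% of the counts in female oenocytes, against 99.95% in both male oenocyte libraries, and the difference there was 0.38 ± 2.05 (adjusted p 0.993 by edgeR).

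Desat1 (3R), the enzyme that makes the first double bond, was deeply covered, with 7942 to 20055 reads a library. It had 54.2% and 67.3% D. sechellia reads in female oenocytes, against 60.9% and 57.0% in male oenocytes, so the male values lay between the female ones. In fat body it had 66.8% and 66.5% in females, against 64.6% and 66.3% in males, so both female values lay just above the male ones. The differences were 0.08 ± 0.30 in oenocytes (95% interval -0.56 to 0.72) and 0.08 ± 0.25 in fat body (-0.44 to 0.60), both with an edgeR adjusted p of 1. The sister gene Desat2 (3R) had 97.9% and 99.2% in female oenocytes, against 99.7% and 98.9% in male oenocytes, and its groups overlapped. The difference of Desat2 was -1.43 ± 0.61 in oenocytes (unadjusted p 0.0330, edgeR adjusted p 1) and -2.12 ± 1.36 in fat body, where 2 of the 4 libraries held no D. simulans read. Desat2 reads also jumped between the male oenocyte replicates, with 18064 and 7228 D. sechellia reads and 49 and 81 D. simulans reads at TPM of 4679 and 4678.

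Outside the desaturases, the oenocyte genes with the smallest p among those whose libraries did not overlap were genes with GD numbers only, which the files do not pair with names. GD11984 (2L) had 41.7% (235 reads) and 37.6% (125 reads) in female oenocytes, against 79.0% (62 reads) and 68.2% (107 reads) in male oenocytes. Females thus had mostly D. simulans reads and males mostly D. sechellia reads, with a difference of -1.97 ± 0.45 (edgeR adjusted p 0.357). In fat body GD11984 leaned to D. simulans in both sexes, with 24.6% and 23.5% in females, against 24.8% and 27.6% in males. The kallisto copies of GD11984 gave 24.9% and 27.6% in female oenocytes, against 26.9% and 33.3% in male oenocytes, a difference of -0.34 ± 0.22. GD19478 (3R) had 85.9% (78 reads) and 96.0% (50 reads) in female oenocytes, against 63.6% (22 reads) and 57.1% (35 reads) in male oenocytes, and GD25544 (2R) had 92.4% and 85.0%, against 60.0% and 70.0%. Their differences, 2.62 ± 0.71 and 1.93 ± 0.62, did not pass the adjustment (edgeR adjusted p 0.682 and 1). The kallisto copies of GD19478 gave 81.2% and 80.3% in female oenocytes, against 80.8% and 79.0% in male oenocytes, a difference of 0.11 ± 0.18. cact (2L), which encodes the inhibitor that holds back the NF-kappaB proteins of the Toll pathway, had 74.5% and 57.5% in female oenocytes, against 91.9% and 87.9% in male oenocytes (-2.13 ± 0.74, unadjusted p 0.0115, edgeR adjusted p 1). In fat body cact had 92.7% and 88.1% in females, against 93.7% and 95.4% in males.

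**Figure D3:**
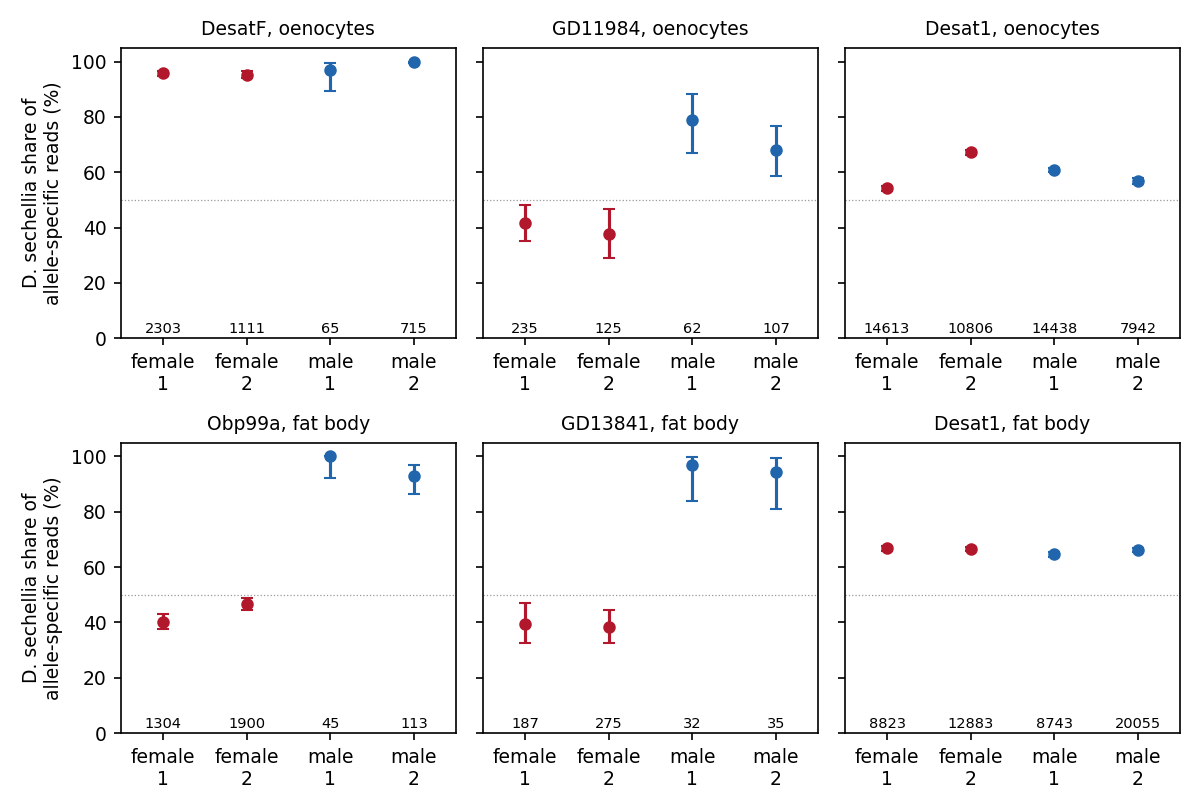
Share of allele-specific reads that were D. sechellia (y axis, percent) in each library for 3 genes of oenocytes (top) and 3 of fat body (bottom), females in red and males in blue. Bars are exact 95% binomial intervals, which cover counting error only, the number at the foot of each point is its allele-specific reads, and Obp99a and GD13841 lie below 50% in female and above 90% in male fat body.

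In fat body 2 genes were called, Obp99a and GD13841, both with a lower D. sechellia share in females, and no gene was called with a higher share. That is 2 of 2005 genes, against 0.117% of all genes fitted, with 51 genes (2.54%) at an unadjusted p under 0.05. DESeq2 also called 2 genes, while limma called 1 with 5 reads added and 0 with 1 read added (59 and 42 at an unadjusted p under 0.05). Over all 2005 genes the difference had a median of -0.07, which turned to 0.05 with a TMM factor for each allele and to 0.02 with each library centred on its median, and 90% of genes lay between -1.01 and 0.84. The libraries of the sexes did not overlap in 642 genes (32.0%), 281 higher and 361 lower in females. Among all 2015 genes fitted with enough reads in this tissue, which include these 2005, the share was 32.1%. The count of called genes was 4 without female fat body replicate 2, 1 without male fat body replicate 1 and 8 without either female oenocyte library.

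Obp99a (3R) encodes an odorant-binding protein, one of a family of small secreted carriers of hydrophobic molecules. It had 40.3% D. sechellia reads (1304 reads) and 46.6% (1900 reads) in female fat body, against 100% (45 reads) and 92.9% (113 reads) in male fat body. Females had a small excess of D. simulans reads, and males had almost no D. simulans reads, with 0 in male replicate 1 (a count of 0 allows up to 6.67%) and 8 in male replicate 2. The difference was -4.64 ± 0.53 (SE; edgeR adjusted p 0.000601, and 3.03e-17 to 0.564 over the alternatives), with both female libraries below both male ones. Without male fat body replicate 2 the fitted value was -9.33, against 0 D. simulans reads, and the call held. The kallisto copies of Obp99a gave a difference of -4.68 ± 0.15, with 54.1% and 56.0% in female fat body, against 96.3% and 97.2% in male fat body. In females the copies thus had a small excess of D. sechellia, where the allele-specific reads had one of D. simulans. The TPM of Obp99a were 5051 and 4754 in female fat body, against 252 and 234 in male fat body.

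On the same scale, Obp99a had 937 and 931 RPM of D. simulans in female fat body, against 0 and 7.08 in male fat body. Its D. sechellia reads were 633 and 814 RPM in female fat body, against 68.0 and 92.9 in male fat body. Reads of both alleles were thus higher in females, with the wider gap in those of D. simulans. In oenocytes Obp99a had 46.6% (341 reads) and 47.6% (225 reads) in females, but only 3 and 4 allele-specific reads in the male libraries, so it did not meet the minimum there. Its kallisto copies did reach the minimum in oenocytes and gave a difference of the same sign, -2.13 ± 0.26 (edgeR adjusted p 0.00982), with 56.1% and 58.9% in female oenocytes, against 94.2% and 81.5% in male oenocytes. Its TPM in oenocytes were 720 and 586 in females, against 16.3 and 16.8 in males. How much of this came from fat body RNA in the oenocyte libraries was not tested.

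GD13841 (3L), which the files do not name, showed the same arrangement of values at lower depth. It had 39.6% D. sechellia reads (187 reads) and 38.5% (275 reads) in female fat body, against 96.9% (32 reads) and 94.3% (35 reads) in male fat body. The difference was -4.95 ± 0.81 (edgeR adjusted p 0.0169, and 3.41e-07 to 0.788 over the alternatives). The groups did not overlap, and the 2 male libraries held 3 D. simulans reads in all. On the scale of RPM, D. simulans reads were 136 and 155 in female fat body, against 1.51 and 1.77 in male fat body, and D. sechellia reads were 89.1 and 97.3, against 46.8 and 29.2. Leaving out any single fat body library ended the call (edgeR adjusted p 0.117, 0.124, 0.359 and 0.489, with differences from -5.48 to -4.59), as did limma with 1 or 5 reads added. It had no kallisto copies that could be used. In oenocytes GD13841 had 10 and 11 allele-specific reads in females and none in males.

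Among fat body genes without overlap and with a higher D. sechellia share in females, GD20297 and GD13828 had the smallest p. GD20297 (3R) had 90.5% (74 reads) and 78.5% (107 reads) in female fat body, against 49.3% (67 reads) and 48.1% (108 reads) in male fat body. Its difference was 2.5 ± 0.58 (edgeR adjusted p 0.255), past the threshold in 4 of 20 alternatives. GD13828 (3L) had 68.2% and 67.7% in female fat body, against 48.1% and 24.6% in male fat body, with 22 to 61 reads a library (2.07 ± 0.61, edgeR adjusted p 1). In oenocytes the same genes had lower female than male means: GD20297 had 57.8% and 52.6% in females, against 77.3% and 56.8% in males, and GD13828 had 53.8% and 52.4%, against 58.5% and 63.8%.

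Set side by side, the tissues were alike in the allelic ratio of a gene, while its sex differences in them showed no relation. Over the 1508 genes measured in both, the log2 ratio in oenocytes correlated with that in fat body at Pearson's r 0.82 in females and 0.79 in males, while the sex differences correlated at -0.02 (across genes, as descriptions, each tissue with its own libraries). Differences between libraries of the sexes overlapped in size with those between replicates, so the correlation of sex differences cannot show whether the tissues share any. The sign of the sex difference was the same in 714 genes (47.3%). Libraries of the sexes stood apart in both tissues for 204 genes (13.5%), against 13.7% of all 1515 genes fitted in both, which include these 1508. They stood apart in 40.9% of the 1508 genes in oenocytes and in 33.0% in fat body, and the product of these shares is also 13.5%, so the count is at its background. Of the 204, 102 had the same direction in both tissues (65 higher and 37 lower in females) and 102 the opposite direction. Differences of 1 log2 unit or more in both tissues were found in 24 genes, 12 in the same and 12 in the opposite direction.

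The difference between the tissues was tested as its own term, the sex difference in oenocytes minus that in fat body. By edgeR 0 of the 1508 genes were called (0% of all genes fitted, smallest adjusted p 0.995), with 50 (3.32%) at an unadjusted p under 0.05. DESeq2 called 0 (23 at an unadjusted p under 0.05), and limma called 0 with either number of reads added. GD11984, further apart between the sexes in oenocytes than in fat body, gave -1.81 ± 0.58 for this term (edgeR unadjusted p 0.00655). GD20297, higher in females in fat body, gave -2.99 ± 0.92 (edgeR unadjusted p 0.00518). Neither survived adjustment. Both were named for a small p of the sex difference in 1 tissue. That sex difference is part of this term, so the unadjusted p-values here are not independent of the choice. The count was 11 genes without female oenocyte replicate 1, 2 without female oenocyte replicate 2, 3 without female fat body replicate 2, and 1 without female fat body replicate 1 or male fat body replicate 2.

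**Figure D4:**
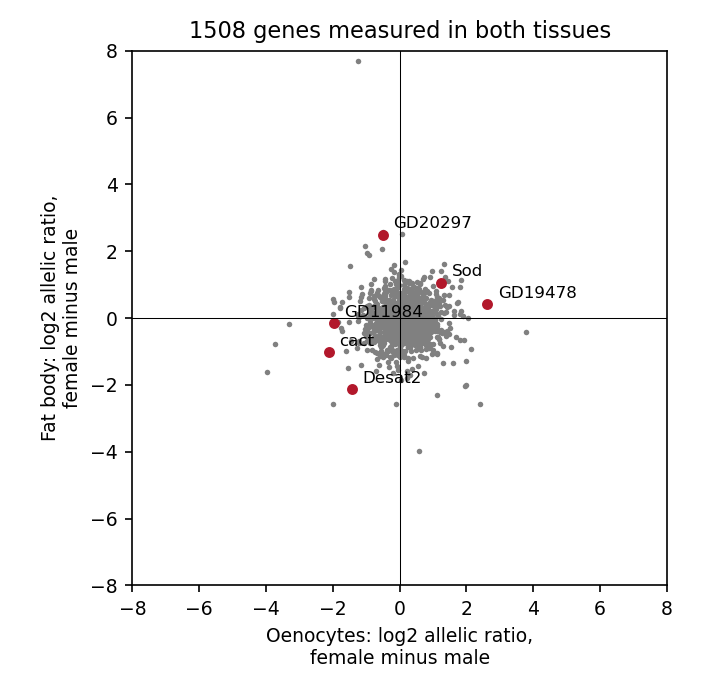
Female-minus-male difference in log2 allelic ratio in oenocytes (x axis) and fat body (y axis) for each of the 1508 genes measured in both tissues, with genes named in the text in red. The points form a cloud around 0 with no slope (Pearson's r -0.02), and Sod, cact and Desat2 lie on the same side of 0 in both tissues.

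Sod (3L), which encodes the superoxide dismutase of the cytosol, had a difference of like size in both tissues, with a single low library in each. It had 80.5% and 76.1% D. sechellia reads in female oenocytes, against 79.5% and 53.4% in male oenocytes. In fat body it had 80.9% and 82.2% in females, against 82.2% and 52.7% in males. In each tissue male replicate 2 alone was low, and there D. simulans reads of Sod numbered 1664 in oenocytes, against 281 in male replicate 1, and 302 in fat body, against 60. Its TPM in male replicates 1 and 2 were 5838 and 5755 in oenocytes and 1212 and 1145 in fat body. Its kallisto copies held no such low library, with 55.1% and 55.7% D. sechellia counts in female oenocytes, against 51.9% and 52.7% in male oenocytes. The differences, 1.24 ± 0.53 and 1.06 ± 0.49, did not pass the adjustment (unadjusted p 0.0326 and 0.0489, edgeR adjusted p 1 for both). CoVIIc (2R), a subunit of cytochrome c oxidase, also jumped in the reads of a single allele, with 27 and 302 D. sechellia reads and 5 and 5 D. simulans reads in the female fat body replicates at TPM of 338 and 334.

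Total reads per gene include the allele-specific reads by which genes were chosen, and the minimum leaves out genes with few reads in a sex, so the counts here are descriptions that are not independent of the choice of genes. In oenocytes 2 of the 2059 genes were called between the sexes by edgeR, against 0.337% of the 7415 genes tested. These were GD16847, lower in females (log2 fold change -2.23 ± 0.26, edgeR adjusted p 0.0197), and GD10319, higher (2.84 ± 0.36, 0.0308), and their allelic differences were -0.55 ± 0.41 and 0.98 ± 0.62. In fat body 20 of the 2005 genes were called, 6 higher and 14 lower in females, against 1.09% of all genes tested. Of these 20, 16 had an allelic difference under 1 log2 unit in size, and the median size was 0.44, against 0.34 over all 2005 genes. Over all 2005 genes, 8.33% had an allelic difference of 1 log2 unit or more. Obp99a and GD13841 were the only genes called in both readouts, and both had more reads in females, with log2 fold changes of 4.61 ± 0.30 (edgeR adjusted p 0.00138) and 3.02 ± 0.32 (0.0108).

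GD13387 (3L) had a fold change in reads of -2.27 ± 0.23 (edgeR adjusted p 0.00996) beside an allelic difference of 0.45 ± 0.29, and GD21142 (3R) had -2.42 ± 0.26 (0.0108) beside -0.22 ± 0.47. Adh (2L), the alcohol dehydrogenase, fell in females by 1.88 on the log2 scale in total reads (edgeR adjusted p 0.0434). Its D. sechellia share was 96.5% and 95.7% in female fat body, against 97.4% and 97.9% in male fat body, with no overlap of the groups and a difference of -0.76 ± 0.38 (edgeR adjusted p 1). In oenocytes the order of Adh was mixed, with 95.3% and 98.7% in females, against 96.3% and 96.2% in males. The kallisto copies of Adh gave 84.4% and 85.3% in female fat body, against 85.4% and 85.3% in male fat body. The difference there was -0.05 ± 0.11. The neighbouring gene Adhr had nearly the same reads as Adh in every library, so the pair cannot be told apart in these counts. The total-read calls were sensitive to the libraries used. Of the 2005 fat body genes, 20 were called with all libraries and 1 to 10 when a single fat body or female oenocyte library was left out. Over all genes tested the fat body count was 81 with all libraries, 10 without male fat body replicate 2 and 13 to 38 without another of these, and the oenocyte count was 25 with all libraries, 0 without either female oenocyte library, 14 without male oenocyte replicate 2 and 16 without female fat body replicate 2.

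**Figure D5:**
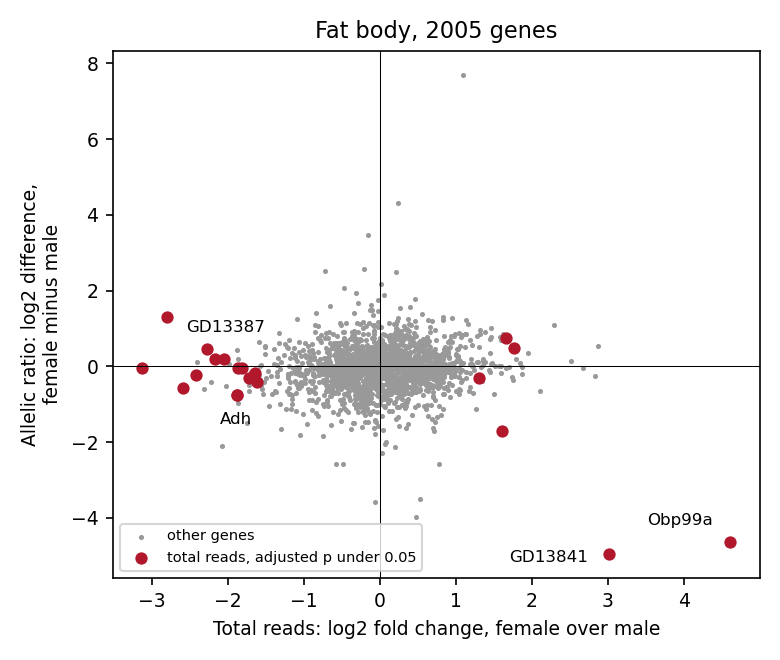
Female-minus-male difference in log2 allelic ratio (y axis) against the female-over-male log2 fold change in total reads (x axis) for each of the 2005 fat body genes. Red points are the 20 genes called in total reads, of which Obp99a and GD13841 stand apart at the lower right and 16 lie within 1 log2 unit of 0 on the y axis.

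The kallisto tables, which assign reads to whole species copies of a transcript, gave a second readout of the alleles for genes with a single matched transcript whose copies differ. It covered 756 of the oenocyte genes and 724 of the fat body genes. The sex differences of the 2 readouts correlated at Pearson's r 0.27 in oenocytes and 0.25 in fat body (across genes, as a description, from the same libraries). Differences were smaller in the copies, with a median size of 0.19 in oenocytes and 0.14 in fat body, against 0.39 and 0.37 in the reads of the same genes. Tested by the same edgeR model, the copies called 1 of the 756 genes in oenocytes and 1 of the 724 in fat body, against 0.592% and 0.473% of the 2535 genes fitted. Over all autosomal genes with enough counts on their copies, a wider set, 4 of 2357 were called in oenocytes and 2 of 2257 in fat body, and Obp99a was among them in both tissues, lower in females.

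Genes with symbols allowed a look at groups by function, though roles were assigned after values had been seen. Of the 79 genes with a symbol in oenocytes, 71 had a difference under 1 log2 unit in size, and 72 of 81 in fat body. Over all genes, 243 of 2059 in oenocytes (11.8%) and 167 of 2005 in fat body (8.33%) had 1 log2 unit or more. The median of the genes with a symbol was 0.15 in oenocytes and -0.07 in fat body, against 0.14 and -0.07 over all genes. None of the listed genes of sex determination met the minimum (4 of 13 symbols in the tables, 2 of them autosomal), none of the antimicrobial peptide genes did (12 of 19 in the tables), and 0 of the 8 listed dosage compensation genes were found in the tables. The storage and metabolism list gave 3 genes in each tissue, none called: Adh, Adhr and Gpdh. Gpdh (2L), the glycerol-3-phosphate dehydrogenase, had 54.4% and 46.3% D. sechellia reads in female oenocytes, against 57.5% and 56.3% in male oenocytes, and 49.9% and 48.3% in female fat body, against 49.3% and 46.0% in male fat body. The odorant-binding list gave 1 gene in oenocytes and 2 in fat body, of which Obp99a was called. Its relative Obp99c (3R) overlapped between the sexes in both tissues, at 60.2% and 44.4% in female oenocytes, against 67.6% and 57.6% in male oenocytes.

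Genes of immune signalling, the Toll and Imd pathways through which the fat body answers microbes, had no call among 6 genes in oenocytes and 12 in fat body. Their medians were -0.03 in oenocytes and -0.32 in fat body, and 5 of 6 and 11 of 12 lay within 1 log2 unit of 0. The scavenger receptor gene crq (2L) had 39.2% and 53.7% in female fat body, against 59.0% and 72.1% in male fat body (-1.15 ± 0.48, unadjusted p 0.0293, edgeR adjusted p 1). The groups of crq did not overlap in fat body but did in oenocytes, at 58.8% and 53.4% in females, against 57.8% and 55.7% in males. The complement-like gene Tep4 (2L) had 83.1% and 82.8% in female fat body, against 72.9% and 80.4% in male fat body (0.54 ± 0.31).

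Cat, MtnA, Hsp83 and AGO2 had small fitted differences, while some other genes with symbols did not. In oenocytes CoVIIc had 3.79 ± 1.74 and the chaperone gene T-cp1 (3R) had -1.43 ± 0.90. CoVIIc had 47 and 218 D. sechellia reads and 3 and 0 D. simulans reads in the female oenocyte replicates, at TPM of 316 and 311. In fat body the chaperone gene Cdc37 (3L) had 1.09 ± 0.82 and Idgf1 (2L) had -1.05 ± 0.54. None of these was called. Cat (3L), the catalase that breaks down hydrogen peroxide, had 49.9% and 49% D. sechellia reads in female oenocytes, against 47.1% and 46.5% in male oenocytes, on 5819 to 11929 reads a library. The sexes did not overlap, yet the difference was 0.16 ± 0.28 (95% interval -0.44 to 0.76, edgeR adjusted p 1). The metallothionein gene MtnA (3R), which binds metal ions, had 77.0% and 77.9% in female oenocytes, against 78.5% and 79.4% in male oenocytes, and a difference of -0.14 ± 0.29 (-0.76 to 0.49). In fat body MtnA had 78.8% and 80.1% in females, against 75.5% and 79.5% in males (0.16 ± 0.24). The chaperone gene Hsp83 (3L) had 41.9% and 41.3% in female oenocytes, against 36.9% and 38.6% in male oenocytes (0.22 ± 0.35). AGO2 (3L), the nuclease of the small interfering RNA pathway, had 65.3% and 66.2% in female oenocytes, against 61.8% and 60.1% in male oenocytes (0.31 ± 0.39, 95% interval -0.53 to 1.14), and 63.8% and 67.5% in female fat body, against 61.7% and 59.9% in male fat body (0.32 ± 0.33, -0.39 to 1.03). The female values of AGO2 were above the male ones in both tissues, by less than the test could separate from replicate error.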

How the data were processed

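The authors' deposited allele tables hold read counts per gene, as whole numbers in 4 classes per the file headers (reference, alternative, no allele, conflicting), and a log2 ratio that the authors computed with 5 added to each allele count. The deposited kallisto tables hold estimated counts and TPM per species copy of each transcript, and the deposited series tables hold TPM per gene. The submitters' processing notes name kallisto 0.44.0 and STAR 2.5.1b. The genome build, the variant filter and the use of strand are not given in the sources used here.

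Allele counts entered edgeR 4.0.16 (R 4.3.3, glmQLFit and glmQLFTest) with 2 columns per sample, a term per sample and allele-by-group terms, over 2571 genes off the X with at least 20 allele-specific reads in every library of at least 1 tissue. The male oenocyte libraries were summed, so 7 samples gave 3 residual degrees of freedom; the summed sample is assumed to vary like the others. SE restate the test (size of the difference over the square root of F). Estimated counts were rounded before testing. Total reads used TMM and filterByExpr. DESeq2 1.42.0 and limma 3.58.1 were alternatives. Scripts were tested on simulated counts. Species copies were used for 4422 of 7776 genes matched to 1 transcript, since 3354 had equal copies.

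Named genes are those called, those with the smallest p among genes without overlap, and listed symbols; genes described by role were picked after their values were seen. Members, lists and roles were chosen with earlier results of these data known. Binomial intervals are exact and cover counting error only. GD numbers, which 427 of 14176 genes replace by a symbol, are printed only for the 2 smallest p in each direction, or where a gene was singled out after its values were seen, as for total reads. No sequence or coordinate beyond the chromosome was used.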

Additional observations from a re-analysis of the deposited data

Results flagged for a closer look

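The fit also held 15 genes on unplaced scaffolds, outside the comparison of placed autosomes, and 2 of them passed the test. GD15875 on NODE_24415 had 47.7% and 52.2% D. sechellia reads in female oenocytes, against 15.2% and 12.7% in male oenocytes, a difference of 2.64 ± 0.36 (edgeR adjusted p 0.00509). In fat body it had 44.9% and 46.2% in females, against 18.4% and 19.6% in males, a difference of 1.83 ± 0.30 (edgeR adjusted p 0.0169). GD26780 on the same scaffold had 60.5% and 52.9% in female oenocytes, against 2.33% and 5.56% in male oenocytes, a difference of 4.85 ± 0.77 (edgeR adjusted p 0.0160). Set beside these, D. sechellia reads on the X were 17.6% to 24.6% in males and 54.0% to 58.1% in females.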

How the results depend on the processing

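The counts of called genes (0 in oenocytes, 2 in fat body, 0 for the tissue difference) kept those values with DESeq2, with all 8 libraries apart and with autosomal genes only in the fit. In oenocytes they were 1 with TMM factors, 1 with each library centred on its median, 1 with a minimum of 10 reads, 2 with a minimum of 1 read, 5 with only the libraries of the tissue and 4 in the kallisto copies, whose calls are over another set of 2357 autosomal genes. In fat body they were 8 with a minimum of 1 read, 7 with only the libraries of the tissue, 1 in limma with 5 reads added, 0 in limma with 1 read added, and 0 with a minimum of 50 reads, which removes both called genes. Lower minima also admit more genes. For the tissue difference they were 5 with a minimum of 1 read and 1 in the kallisto copies (2130 genes), and a fit to a single tissue gives no value. Leaving out 1 library gave 0 to 14 calls in oenocytes, 1 to 8 in fat body and 0 to 11 for the tissue difference. Total-read calls over all genes were 25 in oenocytes and 81 in fat body. They were 70 and 226 with DESeq2, 58 and 146 with 8 libraries apart, 171 and 544 without a filter, and 57 and 220 with a replicate block, and leaving out 1 library gave 0 to 26 and 10 to 81. DESeq2 called 12 and 79 of them among the genes analysed here, where edgeR called 2 and 20. The cause of these shifts was not tested. Replicate numbers were not taken to pair the libraries: deviations of same-numbered libraries correlated at -0.03 to 0.16, over 0.1 in 3 of the 6 pairs of groups and not in the other 3, and with a replicate block the allelic calls stayed at 0, 2 and 0.

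Depth limits what an uncalled gene shows: with 20 to 49 reads, 0.477% of oenocyte genes and 0.212% of fat body genes had intervals within 1 log2 unit of 0.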

Other observations

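Chromosome 4 differed from the major arms in its allelic ratio in both sexes, which was described and not tested. Its 22 oenocyte genes had a median log2 ratio of D. sechellia to D. simulans reads of -0.07 in females and -0.04 in males, while the medians of 2L, 2R, 3L and 3R lay between 0.64 and 0.71 in females and between 0.52 and 0.57 in males. Its 19 fat body genes had medians of -0.08 in females and -0.07 in males, while the other arms lay between 0.61 and 0.73 in females and between 0.66 and 0.72 in males. ATPsyn-beta (4), a subunit of the mitochondrial ATP synthase, had a mean D. sechellia share of 47.4% ± 6.3 in female and 38.0% ± 2.9 in male oenocytes (SD, 2 libraries each), a difference of 0.49 ± 0.43 (SE), and of 39.2% ± 6.1 in female and 46.3% ± 2.2 in male fat body, a difference of -0.42 ± 0.35. Its sex differences had opposite signs in the tissues and did not pass the test in either.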
